A study of Mus musculus with 10 samples.

Results

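The genes described here make, lengthen and desaturate fatty acids. They were taken by name from the deposited gene table: Acly, Acaca and Fasn of de novo synthesis, the elongase genes Elovl1, Elovl5 and Elovl6, and the desaturase genes Scd1, Scd2, Fads1 and Fads2. All 10 were found among 21936 genes, and all 10 passed the filter on low counts. RNA of mouse spinal cord was sequenced in 10 samples with the genotype WT, taken at day 14. The sample titles divide them into 5 Nar samples, of mice with experimental autoimmune encephalomyelitis (EAE) that received naringenin, and 5 EAE samples of the same disease without that name. EAE serves to model multiple sclerosis in mice: immune cells invade brain and spinal cord and myelin is damaged. Naringenin is a flavonoid of citrus fruit. The treatment field of the labels names naringenin for all 10 samples, so the grouping rests on the titles. The labels used here give no strain, sex, age, dose or way of disease induction, and do not say whether replicates are separate animals. P-values then reflect only how far these samples vary, and that variation may be technical.

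Fatty acid synthesis starts from citrate, which ATP citrate lyase cleaves to acetyl-CoA in the cytosol. Acetyl-CoA carboxylase turns that into malonyl-CoA, and fatty acid synthase joins these units to palmitate. Elongases of the endoplasmic reticulum add further carbons, stearoyl-CoA desaturases place the first double bond into saturated chains, and the front-end desaturases build polyunsaturated chains from dietary precursors. Myelin is rich in lipid with very long and monounsaturated chains, and oligodendrocytes, the cells that form it, are known to express these enzymes strongly. The transcription factors of the SREBP family are known to drive many of these genes.

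Of the 10 genes, 3 rose in Nar: both stearoyl-CoA desaturase genes, Scd1 by 1.40-fold and Scd2 by 1.15-fold, and the elongase gene Elovl6 by 1.21-fold. With each of the 10 samples left out in turn, Scd1 was called in all 10 fits, Elovl6 in 6 and Scd2 in 2. Calls over all genes also varied in these fits, from 161 to 1486, against 574 with all samples. None of the 10 fell in edgeR's quasi-likelihood test, nor in DESeq2 or limma-voom, and 0 were lower at an unadjusted p under 0.05, while the other 7 did not pass an adjusted p of 0.05. Scd1 and Elovl6 rose alongside Acss2, which makes acetyl-CoA from acetate, and the sterol sensor gene Insig1. The call of Acss2 was lost without Nar 1 and with the share of mitochondrial reads as a covariate. The genes of de novo synthesis did not pass. Yet the log2 fold change of Fasn, 0.17 (95% interval 0.03 to 0.31), was close to that of Scd2, 0.20 (0.09 to 0.31). The regulator genes went in opposite directions, with Srebf2 higher and Srebf1 lower in Nar. The question addressed is how naringenin treatment changes these genes in the spinal cord of mice with EAE.

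Over all 14595 genes tested, 3.93% were called in either direction, 1.58% as higher and 2.36% as lower in Nar. The members' median log2 fold change was 0.15, against 0.02 over all genes tested, with 8 members above 0 and 2 below. Sizes of rises and falls given below without the word fold are on the log2 scale. In 3 members, the 3 that were called, the values of the groups did not overlap, against 5.79% of all genes tested. Libraries held 14504726 to 15139706 counts in Nar and 16658798 to 18961501 counts in EAE, and member genes had from 647 to 53213 reads in a sample. Reads of the mitochondrial genome made up 6.69 to 7.51% of counts in Nar and 4.62 to 7.01% in EAE. Of the EAE samples only EAE 3 lay within the Nar range, so this share goes largely with the group. A fit with the share as a covariate therefore cannot well tell it from the group, whether a call is kept or lost.

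The sample Nar 4 stands apart from its group across all genes. The leading principal component, computed from log2 CPM (read counts scaled to an equal library size), held 45.8% of the variance. On it Nar 4 scored 16.1, within the EAE range of 8.17 to 34.9, while the other Nar samples scored −35.2 to −24.6. In the members it was the lowest Nar sample for 5 genes (Acaca, Fasn, Scd2, Elovl6 and Fads1). It lay within the EAE range for 5 genes, none of them called (Acaca, Fasn, Elovl5, Fads1 and Fads2). Without Nar 4 the same 3 genes were called, while calls over all genes went from 574 of 14595 to 1486 of 14722.

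**Figure D1:**
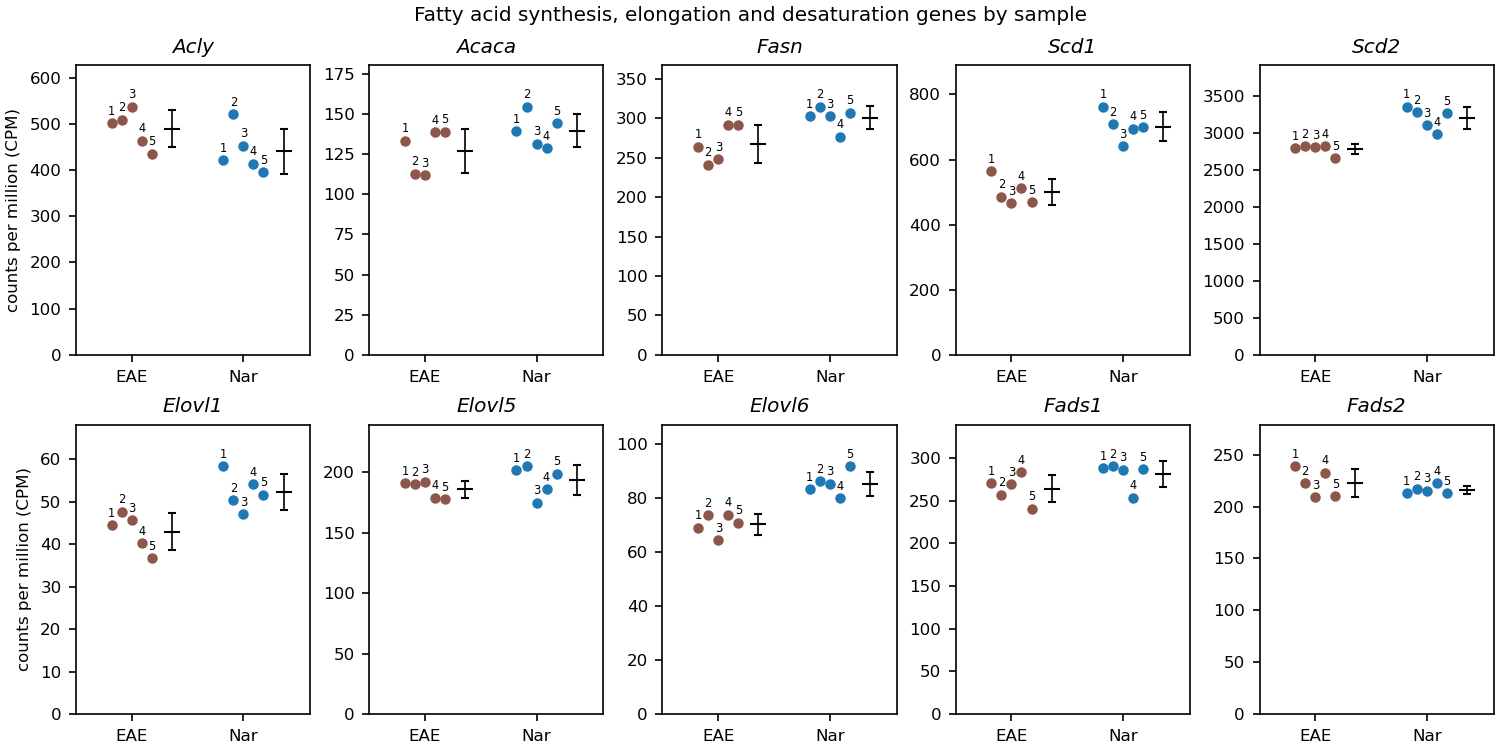
Level in CPM (vertical axes from 0) of each of the 10 genes in the 5 EAE and 5 Nar samples, numbered by replicate, with the group mean and SD beside them in black. The groups do not overlap for Scd1, Scd2 and Elovl6 and overlap for the other 7 genes.

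Levels between genes can be compared only per length, as in the deposited FPKM values, fragments per kilobase of gene scaled to the size of the library. On this scale Scd2, the main stearoyl-CoA desaturase gene of brain, was the highest member, at 580.2 ± 26.7 FPKM in Nar against 515 ± 15.9 for EAE (all means here are over 5 samples, with the SD). Scd1 followed at 142 ± 8.89 in Nar and 103 ± 9.62 in EAE. Acly had 82.6 ± 8.51 and 93.4 ± 5.85 FPKM, so that Scd1 lay above Acly in every Nar sample but overlapped with it in EAE. Fads2 (64.9 ± 1.19 and 68.3 ± 5.19 FPKM) came before Fads1 (57.8 ± 3.11 and 55.4 ± 3.93 FPKM). Elovl5 (54.3 ± 3.43 and 53.3 ± 1.24 FPKM) overlapped with Fads1 in both groups. Fasn had 27.2 ± 1.23 and 24.7 ± 2.75 FPKM, Elovl1 19.01 ± 1.61 and 15.9 ± 1.38, and Elovl6 13.1 ± 0.704 and 11.1 ± 0.818. Acaca was the lowest, at 8.09 ± 0.566 and 7.53 ± 0.978 FPKM. Its deposited gene length, 17074 bases, is the largest of the members, and its rank depends on that length. By CPM it lay above Elovl1 and Elovl6 in both groups. The other neighbours in the FPKM order did not overlap in either group.

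**Figure D2:**
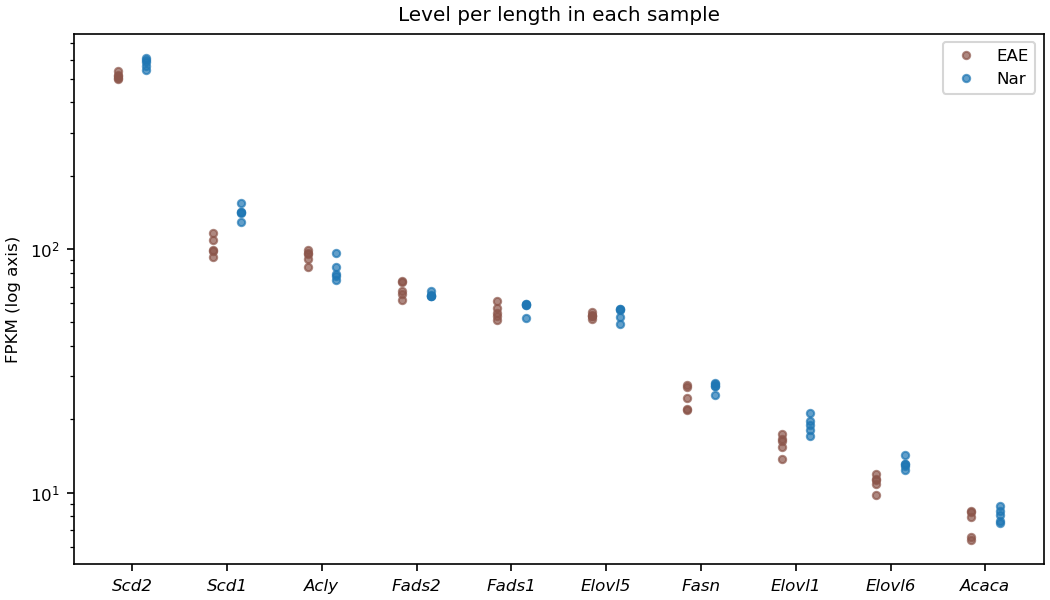
Level per length (FPKM, log axis) of each gene in the 5 EAE and 5 Nar samples, 1 point per sample, ordered by the mean over all 10 samples. Scd2 lies highest and Acaca lowest, and the order is nearly the same in both groups.

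Acly, ATP citrate lyase, opens the pathway (ENSMUSG00000020917, chromosome 11 from 100476353 to 100528000, GRCm38). It had 422, 520, 453, 414 and 396 CPM in Nar 1 to 5 and 501, 509, 537, 464 and 435 CPM in EAE 1 to 5. Apart from Nar 2 and Nar 3, the Nar samples lay below all EAE samples, but the groups overlapped. The log2 fold change of −0.15 (95% interval −0.32 to 0.02) did not pass (edgeR adjusted p = 0.277), nor did the −0.26 found with the mitochondrial share as a covariate (edgeR adjusted p = 0.201).

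Acaca codes for acetyl-CoA carboxylase, the step that commits acetyl-CoA to fatty acids, and lies on chromosome 11 from 84129672 to 84401651. Its values ran from 129 to 154 CPM in Nar and from 112 to 139 CPM in EAE. Its log2 fold change was 0.14 (95% interval −0.03 to 0.30, edgeR adjusted p = 0.319). With the mitochondrial share as a covariate it was 0.34, again not called (edgeR adjusted p = 0.0683). Of the 50-base stretches in its annotated transcripts, 30.4% occur in another gene as well, nearly all in Gm5182, which was not analysed here, so reads may have been lost to or gained from that gene.

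Fasn, the multi-enzyme fatty acid synthase, lies on chromosome 11 from 120805846 to 120824547. It had 303, 315, 303, 277 and 307 CPM in Nar and 264, 241, 248, 292 and 292 CPM in EAE. Every Nar sample other than Nar 4 lay above all EAE samples. Fasn was 1.13-fold higher in Nar, with a log2 fold change of 0.17 (95% interval 0.03 to 0.31, edgeR unadjusted p = 0.0222). It did not pass after adjustment over all genes (edgeR adjusted p = 0.154). Without Nar 4 its log2 fold change was 0.20 and still did not pass (edgeR adjusted p = 0.0816). With the mitochondrial share as a covariate it was 0.31 (edgeR adjusted p = 0.0785).

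Scd1 and Scd2 code for stearoyl-CoA desaturases, which turn stearate and palmitate into the monounsaturated oleate and palmitoleate. They lie 87590 bases apart on chromosome 19, Scd2 from 44293674 to 44306864 and Scd1 from 44394455 to 44407879, on opposite strands. Their open reading frames, of 1077 and 1068 bases, are 89.6% identical in alignment, with 147 bases as the longest identical run. Of the 50-base stretches in their transcripts, 4.56% of those of Scd1 and 3.97% of those of Scd2 occur in another gene, mostly of the Scd cluster. The part of the open reading frame in which they differ most is shown because reads there tell the 2 genes apart. It covers bases 79 to 138 of Scd1 and 88 to 147 of Scd2, counted from the start codon in the GENCODE transcripts, and capitals mark the 24 of 60 bases that differ.
Scd1: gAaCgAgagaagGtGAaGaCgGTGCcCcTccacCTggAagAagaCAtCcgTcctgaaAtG
Scd2: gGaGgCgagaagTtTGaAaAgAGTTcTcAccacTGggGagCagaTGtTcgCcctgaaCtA

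Scd1 had 763, 709.6, 640.3, 694 and 699.7 CPM in Nar and 563.5, 486, 466, 512 and 469 CPM in EAE. The lowest Nar sample lay above the highest EAE sample. The rise of 0.49 on the log2 scale (SE 0.0653, edgeR adjusted p = 0.00171) kept its call without any 1 of the 10 samples (edgeR adjusted p 0.000397 to 0.00997). It also kept its call when the mitochondrial share was added as a covariate (0.54, edgeR adjusted p = 0.0252). In bulk tissue, fewer cells of a type and less RNA per cell cannot be told apart, for this gene as for all others here.

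Scd2 had 3360 (Nar 1), 3284 (Nar 2), 3111 (Nar 3), 2991 (Nar 4) and 3270 (Nar 5) CPM in Nar, and 2798, 2822, 2816, 2829 and 2664 CPM in EAE. The groups did not overlap, with Nar 4 nearest to EAE. The rise was 0.20 (SE 0.0511, edgeR adjusted p = 0.0443). The call ended when any 1 sample other than Nar 4 and EAE 3 was left out (edgeR adjusted p 0.0653 to 0.179). In those fits 161 to 690 genes were called over all genes, against 574 with all samples. The log2 fold change of Scd2 stayed at 0.17 to 0.21 in them. The call also ended with the mitochondrial share as a covariate (edgeR adjusted p = 0.188). Without Nar 4 the rise was 0.23 (edgeR adjusted p = 0.013).

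The level of Scd1 relative to Scd2, per length, was 0.254, 0.241, 0.23, 0.259 and 0.239 in Nar 1 to 5. In EAE 1 to 5 it was 0.225, 0.192, 0.185, 0.202 and 0.197. All Nar samples lay above all EAE samples. These ratios are given without a test, since the unequal change of the 2 genes was known beforehand.

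**Figure D3:**
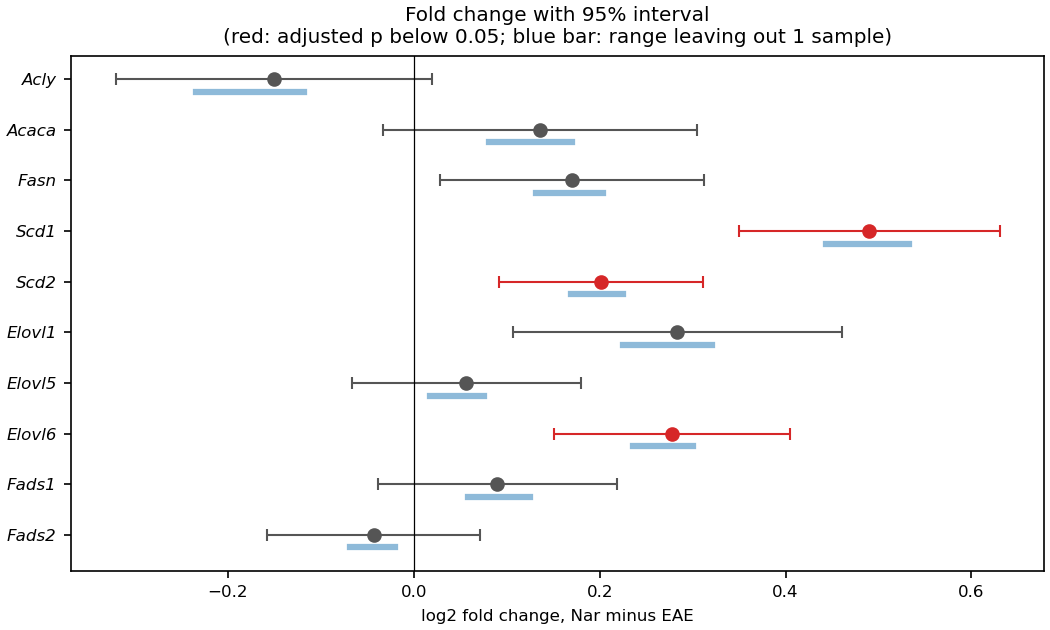
Log2 fold change (Nar minus EAE) of each gene with its 95% interval from the edgeR fit of 5 against 5 samples, in red where the adjusted p was below 0.05. The blue bars span the fold changes found when 1 sample was left out, and the bar of Scd1 lies to the right of all others.

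Elovl6 codes for the elongase that lengthens palmitate to stearate, the substrate of the stearoyl-CoA desaturases (ENSMUSG00000041220, chromosome 3 from 129532355 to 129638495). It had 83.3, 86.3, 85.4, 80.0 and 92.0 CPM in Nar and 69.1, 73.7, 64.4, 73.9 and 71.0 CPM in EAE. The groups did not overlap, though Nar 4 was again the Nar sample nearest to EAE. Elovl6 rose by 0.28 (SE 0.0591, edgeR adjusted p = 0.0212), and by 0.30 without Nar 4 (edgeR adjusted p = 0.00708). Leaving out Nar 1, Nar 3, Nar 5 or EAE 1, 1 at a time, ended the call (edgeR adjusted p 0.061 to 0.086). In these fits 161 to 276 genes were called over all genes, against 574 with all samples. Elovl6 kept a log2 fold change of 0.24 to 0.27 in them. Of the 50-base stretches in its transcripts, 3.98% occur in another gene, mostly Gm11295. It remained with the mitochondrial share as a covariate (0.38, edgeR adjusted p = 0.0356).

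Elovl1, which makes the saturated very long chains used in sphingolipids (chromosome 4 from 118428093 to 118432953), had 58.5, 50.3, 47.1, 54.3 and 51.7 CPM in Nar. It had 44.5, 47.7, 45.7, 40.3 and 36.8 CPM in EAE. The groups overlapped only in that EAE 2 lay above Nar 3. Its log2 fold change, 0.28 (95% interval 0.11 to 0.46), was about as large as that of Elovl6. Its spread was larger, and it did not pass (edgeR adjusted p = 0.0699). DESeq2 called it (adjusted p = 0.0284). With the mitochondrial share as a covariate its log2 fold change was smaller, 0.16 (edgeR adjusted p = 0.508). The ratio of Elovl6 to Elovl1 per length was 0.696 ± 0.0764 in Nar and 0.701 ± 0.0926 in EAE. That difference was smaller than the spread within either group (two-sided exact permutation p = 0.968, n = 5 each, adjusted p = 0.968 over 2 ratios).

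Elovl5, the elongase of polyunsaturated chains (chromosome 9 from 77917364 to 77984519), differed by 0.06 (95% interval −0.07 to 0.18, edgeR adjusted p = 0.587). Its Nar samples spanned 175 to 205 CPM, and its EAE samples, at 178 to 192 CPM, lay inside that range. A change of the size seen in Scd1 lies outside its interval.

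Fads1 and Fads2 code for the front-end desaturases of polyunsaturated fatty acid synthesis. They lie on opposite strands of chromosome 19, Fads2 from 10062765 to 10101746 and Fads1 from 10182888 to 10196877. Fads1 had 288, 291, 286, 253 and 287 CPM in Nar and 270.5, 257, 269, 283 and 240.5 CPM in EAE. Nar 4 lay within the EAE range and the other Nar samples above it. The log2 fold change was 0.09 (95% interval −0.04 to 0.22, edgeR adjusted p = 0.389), and 0.13 without Nar 4, again not called (edgeR adjusted p = 0.201).

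Fads2 spread little in Nar, from 213 to 223 CPM, and more in EAE, from 209 to 239 CPM. Its log2 fold change was −0.04 (95% interval −0.16 to 0.07, edgeR adjusted p = 0.663). Per length, the ratio of Fads2 to Fads1 was 1.08, 1.09, 1.10, 1.28 and 1.08 in Nar 1 to 5 and 1.29, 1.26, 1.14, 1.20 and 1.28 in EAE 1 to 5. Apart from Nar 4, all Nar samples lay below all EAE samples. Over all samples the ratio did not differ beyond the spread (log2 difference −0.13, two-sided exact permutation p = 0.0714, n = 5 each, adjusted p = 0.143 over 2 ratios). Without Nar 4 the difference was −0.18 (two-sided exact permutation adjusted p = 0.0317). Nar 4 lay far from the other Nar samples in this ratio, and leaving it out left the groups without overlap. With no overlap the permutation p before adjustment is the smallest possible, so it adds nothing to that separation. Without any other 1 sample the ratio did not pass (two-sided exact permutation adjusted p 0.127 to 0.286).

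Promoter sequences of RefSeq (build GRCm38.p6, 250 bases before to 50 after the start) were found for 7 of the 10 genes, with 8 promoters in all. Scd1, Scd2 and Fads1 had no entry. On both strands, TCACNCCAC, the core of the sterol regulatory element, was in 0 of these 7 genes and in 1.24% of all 32851 promoters. CCAAT, the box bound by NF-Y, a common partner of SREBP factors, was in 4 of 7 genes (Acly, Fasn, Elovl1 and Elovl5) and in 37.4% of all promoters. CACGTG, the E-box, was in Elovl5 alone and in 7.15% of all promoters. These matches describe letters and show no binding. The stretch before the gene is shown for Elovl6, the only raised member with an entry, and for Fasn, which holds 3 matches of CCAAT, with matched letters in capitals. Each is printed along the strand of its gene, where ATTGG is CCAAT on the other strand, and in Fasn 2 of the matches overlap.
Elovl6, chr3:129532205-129532354, plus strand: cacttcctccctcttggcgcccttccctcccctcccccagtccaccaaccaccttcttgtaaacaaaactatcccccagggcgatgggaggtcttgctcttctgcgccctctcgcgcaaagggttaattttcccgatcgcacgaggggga
Fasn, chr11:120824548-120824697, minus strand: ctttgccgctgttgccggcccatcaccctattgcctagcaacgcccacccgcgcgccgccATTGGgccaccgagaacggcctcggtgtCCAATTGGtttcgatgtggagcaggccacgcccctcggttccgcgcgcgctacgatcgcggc

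Other genes of the pathway were taken from lists of 54 genes, of which 52 were tested. Of these 3 rose and 3 fell, against 1.58% higher and 2.36% lower over all genes tested. Their median was −0.00455 on the log2 scale. In the supply of acetyl-CoA, malonyl-CoA and NADPH, 1 of 10 rose and 0 fell (median 0.11). The 1 gene was Acss2, acetyl-CoA synthetase of the cytosol, at 68.6 ± 1.52 CPM in Nar and 51.9 ± 5.57 in EAE. Its rise of 0.40 (edgeR adjusted p = 0.00999) lost its call without Nar 1 (edgeR adjusted p = 0.0521) and with the mitochondrial share as a covariate (edgeR adjusted p = 0.162). Calls over all genes numbered 161 and 197 in these fits, against 574 in the main fit.

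Of 9 tested genes of the elongation cycle, 0 rose and 1 fell (median 0.00379). It was Hacd2, a dehydratase of the cycle, with 42.9, 48.2, 48.8, 47.2 and 39.9 CPM in Nar and 59.1, 59.7, 61.4, 58.6 and 63.5 CPM in EAE. The groups lay well apart, and the fall of 0.41 on the log2 scale kept its call without any 1 sample (edgeR adjusted p = 0.00519, or 0.00164 to 0.022 with 1 sample left out).

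Among 6 tested desaturation genes, which include the paralogues Scd3 and Fads3 and the cytochrome b5 electron carriers, 0 rose and 0 fell. Scd3 was low, with 10.1 ± 1.57 CPM in Nar, 10.9 ± 0.798 CPM in EAE and a log2 difference of −0.11 (edgeR adjusted p = 0.604). Of 10 genes for acyl-CoA synthetases and fatty acid carriers, 0 rose and 1 fell (median −0.07). It was Acsbg1, an acyl-CoA synthetase of brain, at 252 ± 16.1 CPM in Nar and 306 ± 13.7 in EAE. Acsbg1 fell by 0.28 (edgeR adjusted p = 0.0194). It lost its call when Nar 1, 3 or 5 was left out (edgeR adjusted p up to 0.0631) and with the mitochondrial share as a covariate (edgeR adjusted p = 0.108). Calls over all genes numbered 161 to 205 in these fits. Without Nar 4, 11 pathway genes were called in place of 6, 5 higher and 6 lower. The same fit called 1486 of all 14722 genes tested, in place of 574 of 14595.

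**Figure D4:**
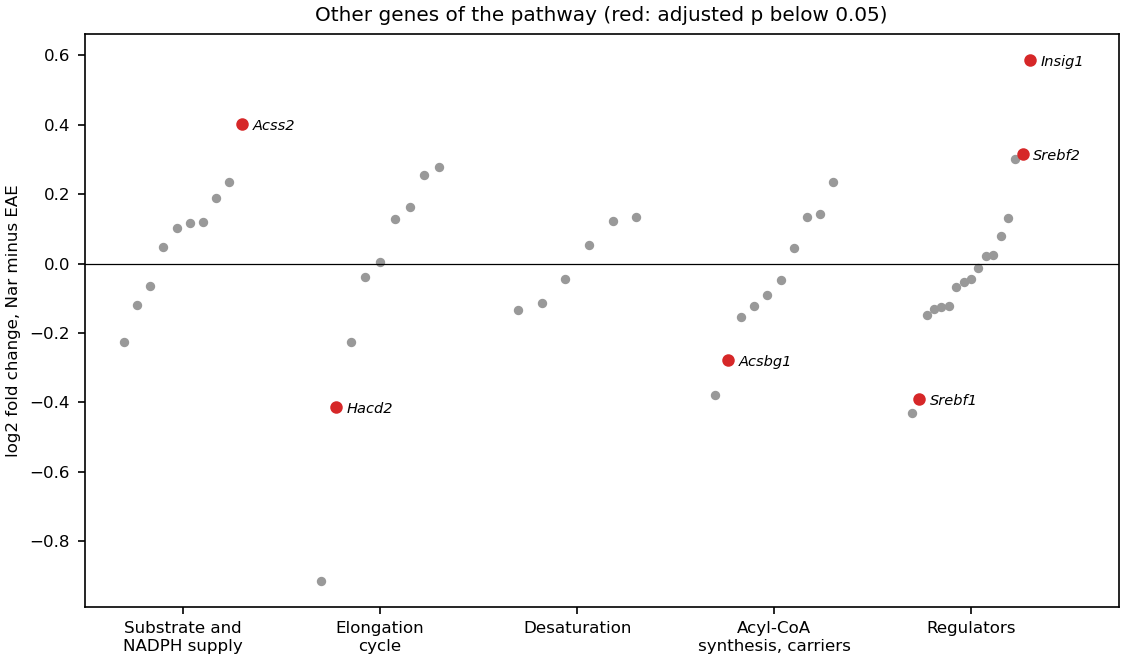
Log2 fold change (Nar minus EAE) of the 52 tested pathway genes by list, 1 point per gene, with those past an adjusted p of 0.05 in red and named. Most points lie between −0.3 and 0.3, with 3 named genes above 0 and 3 below.

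Of the 17 regulators, 2 rose and 1 fell (median −0.05). Srebf1, whose SREBP proteins are known to drive fatty acid genes, had 104, 94.9, 100.1, 99.9 and 98.0 CPM in Nar and 130.1, 130.1, 123, 130.2 and 137 CPM in EAE. The fall of 0.39 was of 0.763-fold, with no overlap, and remained without any 1 sample (edgeR adjusted p = 0.00153). Srebf2, whose protein is known chiefly for sterol genes, had 206 ± 11.2 CPM in Nar and 165 ± 7.79 in EAE, a rise of 0.32 (edgeR adjusted p = 0.00946). Insig1, which holds SREBP precursors in the endoplasmic reticulum and is itself an SREBP target, rose by 0.59, from 105 ± 8.50 in EAE to 158 ± 19.4 CPM in Nar (edgeR adjusted p = 0.0028). Scap, the escort of SREBP, did not pass (0.13, edgeR adjusted p = 0.198). Mlxipl, the carbohydrate-responsive factor of lipogenesis, was low and did not pass (5.17 ± 1.63 CPM in Nar and 6.98 ± 1.77 in EAE, edgeR adjusted p = 0.288).

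**Figure D5:**
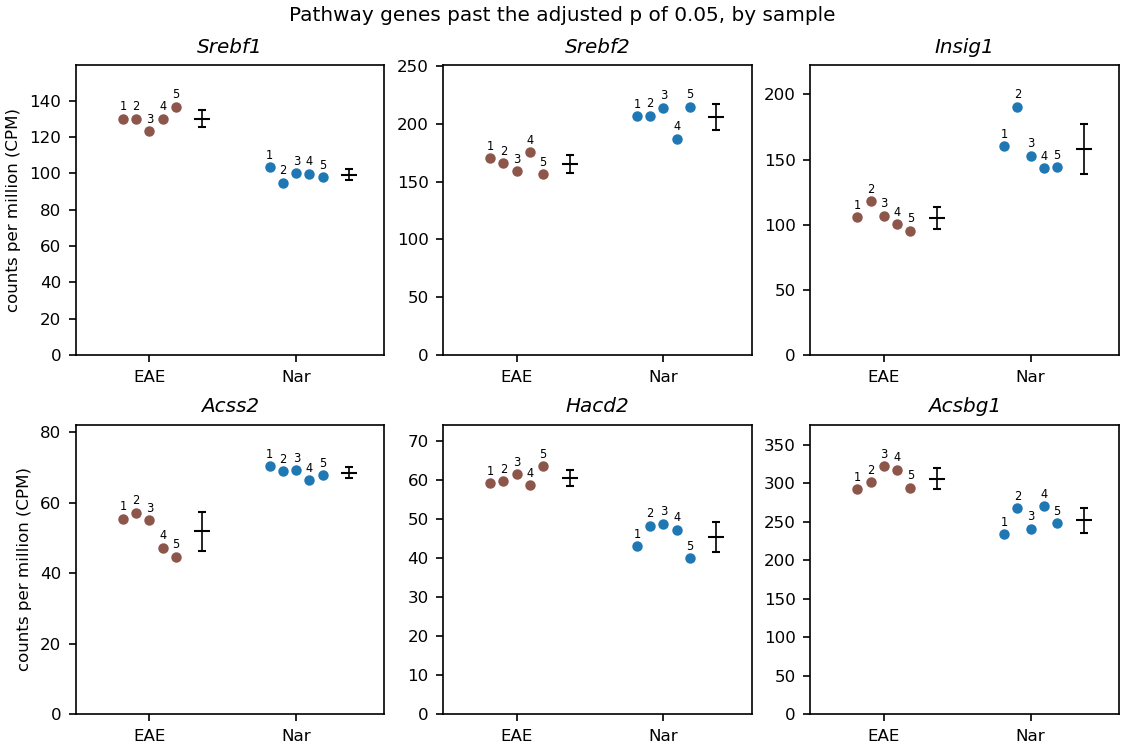
Level in CPM (vertical axes from 0) of the 6 pathway genes past an adjusted p of 0.05 in the 5 EAE and 5 Nar samples, numbered by replicate, with group mean and SD in black. Srebf2, Insig1 and Acss2 are higher and Srebf1, Hacd2 and Acsbg1 lower in Nar. The groups do not overlap for any of them, as for 5.79% of all genes tested.

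Markers of several cell types moved with the same comparison, and their part in the members' changes was not tested. Over all genes tested, 1.58% were called higher and 2.36% lower in Nar. Of 12 oligodendrocyte markers, 4 rose and 0 fell, with a median of 0.26. Their summed level was 32830 to 39540 CPM in Nar, with Nar 4 lowest, and 25040 to 34160 in EAE. Of 8 astrocyte markers 3 fell, with sums of 7156 to 9902 CPM in Nar, Nar 4 highest, and 9348 to 10610 in EAE. Microglial markers summed to 316 to 750 CPM in Nar, Nar 4 highest, and 619 to 796 in EAE, with 0 of 6 called. Infiltrating myeloid markers had sums of 14.8 to 127 CPM in Nar and 198 to 618 in EAE, with 2 of 7 lower. Most of each sum was Lyz2, at 12.8 to 98.5 CPM in Nar and 187 to 479 in EAE, and the others did not all follow it. In Nar 4, Ccr2, Ly6c2 and Plac8 lay above all EAE samples, Arg1 and Chil3 within the EAE range, and Lyz2 and Ms4a7 below it. T cell markers had sums of 1.55 to 8.43 and 5.36 to 14.9 CPM, with 1 of 4 tested lower. All 5 fibroblast markers fell, from sums of 126 to 152 CPM in EAE to 56.0 to 85.7 in Nar. The 8 neuron markers, 5 endothelial markers and 5 red blood cell markers held 0 calls, and 1 of 6 oligodendrocyte precursor markers rose.

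Fat tissue also expresses many of these enzymes strongly. The 8 adipocyte markers summed to 0.961 to 1.89 CPM in Nar and 1.17 to 2.22 in EAE, so they were near 0 in both groups. Cfd had 0 reads in all samples, Adipoq at most 0.405 CPM, and 1 of the 8 passed the filter on low counts, without a call. Schwann cell markers summed to 3.10 to 5.40 CPM in Nar and 5.20 to 22.2 in EAE, with 0 of 3 tested called and Pmp2 at 0 reads in all samples. Skeletal muscle markers summed to 0.868 to 2.70 CPM in Nar and 0.957 to 1.96 in EAE, with 0 of 1 tested called.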

How the data were processed

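Spinal cord RNA of 10 samples was sequenced after poly-T capture and random priming, a protocol that names no strand-marking step, per the labels' protocols. The tools named are cutadapt and HISAT2 2.0.5, per the submitters' processing notes. Which read counter and annotation release were used is not stated in the labels. In 1 table the authors deposited a read count and an FPKM value per gene and sample, per the file headers. The FPKM values equal count over length over total within 1% for 100% of 153986 values above 0.1. The table's coordinates are those of GRCm38, since 21617 genes, all 10 members among them, have the same start and end in GENCODE M21.

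Counts were tested with edgeR 4.0.16 (filterByExpr, TMM scaling, robust quasi-likelihood fit, two-sided, Benjamini-Hochberg over 14595 genes, threshold 0.05). CPM uses TMM-scaled totals, log2 CPM adds 2, and the SE is the log2 fold change over the root of F. Ratios used FPKM and exact permutation. The text names all members, each pathway gene past the threshold, and Srebf1, Srebf2, Mlxipl, Scap and Insig1. Scd3 was named after its values were seen. Members, lists and rules were chosen with earlier results of these data known. Samples of a group differed beyond counting noise (chi-square per degree of freedom at least 4.14). On simulated counts for this comparison over 14595 genes, edgeR called 56 of 100 genes changed by 0.5 and 92 of 100 changed by 1 on the log2 scale, with 10 false calls among 158. Alternatives were other scalings, filters, DESeq2 1.42.0, limma 3.58.1, FPKM, a replicate block, the mitochondrial share as a covariate and each sample left out.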

Additional observations from a re-analysis of the deposited data

Results flagged for a closer look

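In a search of 78 groups of 5 values (members, named pathway genes, ratios and summed lists, each in Nar and in EAE), 10 had 1 sample far from the other 4 by Dixon's criterion, and chance marks about 1 in 20 groups. Of the members, Scd2 had 2664 CPM in EAE 5, below the other EAE samples at 2798 to 2829. Fads1 had 253.4 CPM in Nar 4, below the other Nar samples at 286 to 291, and the ratio of Fads2 to Fads1 was 1.282 in Nar 4 against 1.08 to 1.10 in the others. Nar 4 was also the far sample in the summed levels of astrocyte (9902 CPM), microglia (750.3), infiltrating myeloid (126.6), T cell (8.434) and fibroblast markers (85.69). EAE 4 lay far above its group in Schwann cell markers (22.18 CPM) and EAE 2 in red blood cell markers (243.7 CPM).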

How the results depend on the processing

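Scd1 kept its call and direction under all 10 alternative settings and without any 1 sample (0.44 to 0.54). Elovl6 kept its call under 9 of 10 settings, the exception being log2(FPKM + 0.1) with no filter (limma adjusted p = 0.0534). Scd2 kept its direction under all 10 and its call under 4. It lost it with upper quartile factors (edgeR adjusted p = 0.0606), no filter (0.0675), either FPKM fit (limma adjusted p 0.103 and 0.225), the replicate block (edgeR adjusted p = 0.0716) and the mitochondrial share. Members called numbered 3, and 1 with log2(FPKM + 0.1), 4 with DESeq2 and 1 to 3 with 1 sample left out, 1 each without Nar 1, Nar 3, Nar 5 or EAE 1. Only Fads2 changed direction among members, to 0.0129 with the mitochondrial share. Over all genes 574 were called, 230 higher and 344 lower. The count was 1306 with DESeq2, 881 with limma-voom, 197 with the mitochondrial share and 161 to 1486 with 1 sample left out. The split moved to 193 higher and 526 lower with log2(FPKM + 1), 145 and 441 with log2(FPKM + 0.1), and 186 and 450 with the replicate block. With the mitochondrial share more genes were higher than lower, 129 against 68. With 1 sample left out it ranged from 384 and 1102 (without Nar 4) to 452 and 464 (without EAE 3). Pathway genes called numbered 6, and 4 to 11 with 1 sample left out. The log2 difference of the ratio of Fads2 to Fads1 was −0.18 to −0.11 with 1 sample left out. That of Elovl6 to Elovl1 was −0.0629 to 0.0508, above 0 without Nar 1 (0.04), Nar 4 (0.03), EAE 4 (0.03) or EAE 5 (0.0508). The causes were not tested. Replicate numbers are shared between groups, but deviations of same-numbered samples correlated at −0.227 to 0.161. Of the 10 samples, 1 correlated best with its own number. No pairing was seen in these values, which cannot exclude one. The replicate block left 2 members and 636 genes called. Permuting signs within the 5 pairs, the ratio differences with the replicate block were −0.13 (Fads2 to Fads1) and −0.01 (Elovl6 to Elovl1), where p cannot go below 0.0625.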
